A study of Mus musculus with 6 samples.

Results

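Footprints of translating ribosomes were measured on 10 mouse genes of a cytoplasmic mRNA repression pathway: the Smaug homologues Samd4 and Samd4b, and the CCR4-NOT deadenylase genes Cnot1, Cnot2, Cnot3, Cnot6, Cnot6l, Cnot7, Cnot8 and Cnot10. They are 10 of the 22770 gene rows of the deposited table and were found by their symbols. The list was built after Samd4b had stood out among the rows with lower footprint density in Eif5a SKO spermatids. The genotype comparison of the members is therefore given as a description, with counts over the set and no test of single members. The cells were round spermatids, the haploid cells that follow meiosis, from mouse testis, in 3 samples labelled Eif5a SKO and 3 labelled wild type (WT). EIF5A, which is activated by a unique lysine modification called hypusine, keeps ribosomes moving where peptide bonds form slowly. The labels do not spell out SKO, and the table names the same libraries cKO. The driver of any Cre, and the age and strain of the mice, were not stated in the material used here. The series design text, written for an accessibility assay, speaks of 3 mice per group with spermatids isolated by sorting.

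Smaug was first described in Drosophila, where it binds hairpins in target mRNAs through a SAM domain, blocks their translation and brings in the CCR4-NOT complex. CCR4-NOT shortens the poly(A) tail, which is the usual first step of mRNA decay. CNOT1 is its scaffold, CNOT2 and CNOT3 form a module on that scaffold, CNOT10 binds its amino-terminal end, and 2 kinds of nuclease remove the adenosines. In spermatids many mRNAs are made early and kept untranslated until later, and male mice without Cnot7 are infertile.

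The targeted gene was checked first. Eif5a had 1.84, 1.93 and 2.99 FPKM in the SKO libraries, against 34.2, 48.8 and 61.9 FPKM in the WT libraries. FPKM counts footprints per kilobase of a gene's transcript and in proportion to the mapped fragments. A mean of 1 FPKM or more over the libraries was required for testing, which 15578 rows met, all 10 members among them. The depth of the libraries is not known. An estimate relative to SKO replicate 1, from the most common ratio of values under 1 FPKM between libraries, ran from 0.503 to 1. In each library the 3 densest rows took 24.6% to 46.4% of the total, so libraries were compared both as deposited and after TMM-type scaling, which divides each by a trimmed mean ratio. As a check of the label, the 16 round spermatid markers summed to 1186 to 2472 FPKM in SKO and 926 to 1612 FPKM in WT, and none was listed at 0 in every library. Footprint density depends on the amount of mRNA as well as on its translation, and fewer cells of a type cannot be told apart from less RNA per cell. Matched RNA levels are not analysed here.

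The Smaug genes are the members with the largest difference between genotypes, and they differed in opposite directions. Samd4b (gene 233033, GRCm38 chromosome 7, 28399522 to 28436191) had 3.01, 4.10 and 1.98 FPKM in SKO, against 40.5, 33.6 and 15.6 FPKM in WT. Every SKO library lay below every WT library. The means were 3.03 ± 1.06 FPKM in SKO and 29.9 ± 12.9 FPKM in WT (SD, n = 3 each), so SKO held 10.1% of the WT density. On the log2(FPKM + 1) scale the difference was -2.87 (SE 0.44), the 12th lowest of all tested rows.

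Samd4 (gene 74480, chromosome 14, 46882965 to 47105817) encodes the paralogue of SAMD4B and showed the reverse. It had 45.8, 98.7 and 53.2 FPKM in SKO, against 13.2, 16.4 and 33.4 FPKM in WT, again with no overlap. The means were 65.9 ± 28.6 FPKM in SKO and 21.0 ± 10.8 FPKM in WT (SD, n = 3 each), a ratio of 3.14. The log2 difference was 1.63 (SE 0.48). WT replicate 3 lay nearest to SKO for both genes, with the lowest Samd4b and the highest Samd4 of the WT libraries. Without it the log2 difference was -3.27 for Samd4b and 2.01 for Samd4.

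The share of the Smaug pair held by Samd4b does not depend on how a library is scaled. It was 6.16%, 3.99% and 3.59% in SKO, against 75.4%, 67.2% and 31.9% in WT. Samd4b was thus the denser of the pair in WT replicates 1 and 2, and Samd4 was the denser in WT replicate 3 and in all 3 SKO libraries. The summed density of the pair was 48.9, 103 and 55.2 FPKM in SKO, against 53.8, 50.0 and 49.0 FPKM in WT. In that sum, as deposited, SKO replicates 1 and 3 lay close to the WT libraries, and SKO replicate 2 stood apart. The sum, unlike the share, changes with the scaling. TMM-type scaling divides SKO replicate 2 by the largest factor, 1.31, and WT replicate 1 by the smallest, 0.810. It thus brings the sum of SKO replicate 2 nearer to the other libraries. It also moves the sum of WT replicate 1 away from WT replicates 2 and 3.

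**Figure D1:**
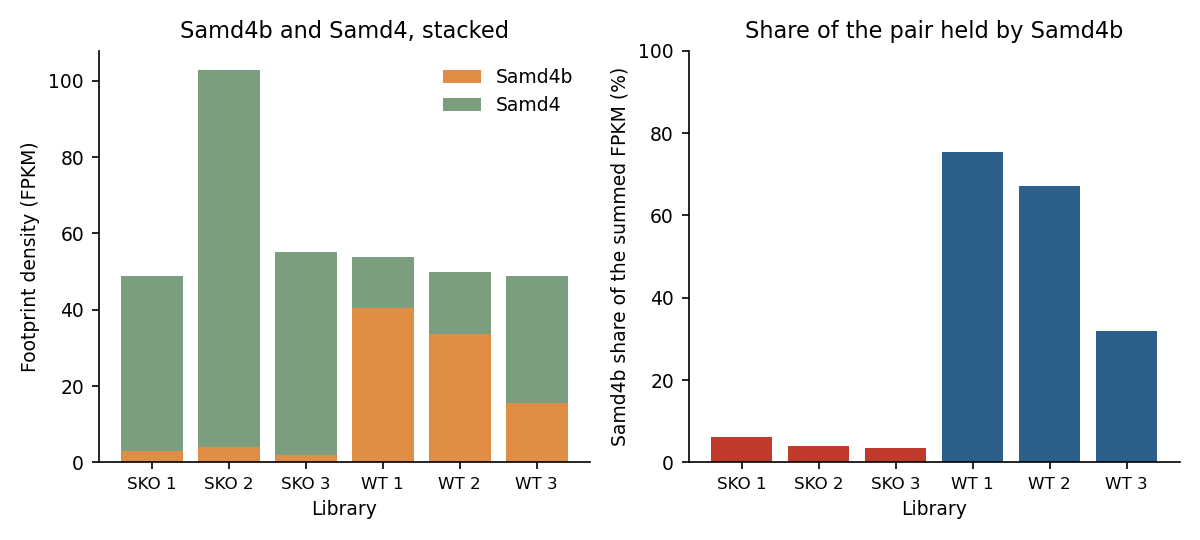
The left panel stacks the footprint density of Samd4b and Samd4 (FPKM) in each of the 3 SKO and 3 WT libraries, and the right panel gives the percent of that sum held by Samd4b. The Samd4b share is at most 6.16% in SKO and at least 31.9% in WT. The sum as deposited, which depends on the scaling, lies between 48.9 and 55.2 FPKM in every library but SKO replicate 2.

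Markers of other testis cells moved with the genotype and stand here beside the Smaug values, since Samd4 is also expressed in somatic tissues. The Sertoli cell markers (5 of 12 in the table) summed to 60.9 to 83.8 FPKM in SKO and 13.7 to 25.6 FPKM in WT. The Leydig cell markers (7 of 10) summed to 61.2 to 118 FPKM in SKO and 13.6 to 18.6 FPKM in WT. The sums of the other marker lists overlapped between genotypes as deposited. Spermatocyte markers (12 of 12) summed to 160 to 261 FPKM in SKO and 163 to 335 FPKM in WT, and spermatogonial markers (6 of 8) to 15.1 to 19.9 FPKM in SKO and 13.4 to 16.4 FPKM in WT. Markers of peritubular, vessel, macrophage and blood cells (10 of 15) summed to 49.1 to 70.7 FPKM in SKO and 57.2 to 118 FPKM in WT. After TMM-type scaling this last sum did not overlap, at 53.9 to 64.1 in SKO and 70.6 to 127 in WT, and that of spermatocyte markers overlapped at 189 to 204 in SKO and 202 to 300.5 in WT.

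That last list held opposite moves, with 4 of its 10 markers higher and 4 lower in every SKO library, beside 10.9% and 4.78% of all tested rows. The higher ones were the smooth muscle genes Acta2, Myh11 and Cnn1 and the matrix gene Dcn, and the lower ones were the haemoglobin genes Hbb-bs, Hbb-bt, Hba-a1 and Hba-a2. Acta2 had 17.6, 21.5 and 12.5 FPKM in SKO, against 2.91, 1.90 and 3.98 FPKM in WT, and Dcn had 10.2, 9.04 and 7.59 FPKM in SKO, against 1.44, 1.00 and 0.887 FPKM in WT. Dcn was called higher by limma (adjusted p = 0.0470), and after TMM-type scaling both were (adjusted p = 0.0409 each). Hbb-bs had 5.86, 6.19 and 16.1 FPKM in SKO, against 17.1, 35.7 and 29.8 FPKM in WT, and was not called. The muscle and matrix markers, and the Sertoli and Leydig sums, thus lay higher in SKO, as Samd4 did. Within SKO the order of the libraries differed. As deposited, SKO replicate 2 had the highest Samd4 (98.7 FPKM) and Acta2, but the lowest Sertoli sum (60.9 FPKM) and Leydig sum (61.2 FPKM). Its Sertoli sum was nearly equal to that of SKO replicate 1 (61.1 FPKM). After TMM-type scaling it still had the highest Samd4 (75.2) and the lowest Sertoli (46.5) and Leydig (46.6) sums. Acta2 was then highest in SKO replicate 1. Of the tested markers, 5 of 7 for Leydig, 3 of 5 for Sertoli and 4 of 15 for round spermatids lay higher in every SKO library. For spermatocytes it was 0 of 11 and for spermatogonia 0 of 4, and no marker of these lists lay lower in every SKO library. No marker in the table was listed at 0 in all 6 libraries. The Sertoli markers Sox9, Wt1 and Amh had no row under these symbols and are not part of the Sertoli sum. The part of these cells in the Samd4 and Samd4b values was not tested.

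RefSeq lists 1 transcription start for Samd4b and 2 for Samd4, 186 kb apart, and the gene row does not say which Samd4 transcript the footprints lie on. The 250 bases before each start are shown because this pair carries the largest difference. They come from RefSeq for GRCm38.p6 and are written 5′ to 3′ on the strand of the gene. Capitals mark TGACG or its reverse complement CGTCA, the core of the cAMP response element bound by CREM, a transcription activator of round spermatids. Samd4b lies on the minus strand (chr7:28436192-28436441), and Samd4 on the plus strand at an upstream (chr14:46882715-46882964) and an internal start (chr14:47068727-47068976).
Samd4b: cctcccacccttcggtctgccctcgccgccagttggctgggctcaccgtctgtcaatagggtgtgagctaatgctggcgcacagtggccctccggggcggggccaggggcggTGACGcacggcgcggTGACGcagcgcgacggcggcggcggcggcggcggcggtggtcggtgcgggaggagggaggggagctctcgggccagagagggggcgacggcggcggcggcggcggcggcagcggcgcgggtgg
Samd4 upstream start: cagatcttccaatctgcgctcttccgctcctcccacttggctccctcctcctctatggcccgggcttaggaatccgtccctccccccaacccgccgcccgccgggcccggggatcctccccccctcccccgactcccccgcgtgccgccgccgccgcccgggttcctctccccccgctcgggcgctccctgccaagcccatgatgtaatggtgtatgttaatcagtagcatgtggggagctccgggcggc
Samd4 internal start: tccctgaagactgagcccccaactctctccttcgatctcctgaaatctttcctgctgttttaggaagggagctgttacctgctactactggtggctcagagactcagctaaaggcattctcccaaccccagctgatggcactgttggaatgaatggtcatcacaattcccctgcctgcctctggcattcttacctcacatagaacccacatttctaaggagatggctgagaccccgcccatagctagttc
The Samd4b window holds 2 matches and the Samd4 windows hold 0. Of all 32851 windows of 250 bases, 17.8% hold at least 1 match and 3.90% hold 2 or more. Among the 15 windows of the 8 members in that table, 4 hold a match, and none holds the full element TGACGTCA, which 1.55% of all windows hold. G and C make up 78% of the Samd4b window, 70% of the upstream and 51.2% of the internal Samd4 window, against a median of 52.4% over all windows. A match in these letters is a description and not a binding site.

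Cnot1, the scaffold on which the deadenylase is built, was the densest subunit in every library. It had 46.8, 74.8 and 50.4 FPKM in SKO, against 64.04, 85.0 and 86.4 FPKM in WT (gene 234594, chromosome 8, 95718931 to 95808113). As deposited the groups overlapped, since SKO replicate 2 lay above WT replicate 1. After TMM-type scaling they did not overlap, at 46.7 to 57.1 in SKO and 77.6 to 91.9 in WT. The log2 difference was -0.46 (SE 0.39) with the deposited values and -0.64 (SE 0.19) after TMM-type scaling.

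The other subunits of the scaffold modules showed no separation between the genotypes. Cnot2 had 12.6, 31.2 and 18.3 FPKM in SKO, against 14.1, 15.4 and 15.7 FPKM in WT (log2 difference 0.34, SE 0.41). As deposited its spread was wider in SKO, with a coefficient of variation of 46.2% in SKO and 5.52% in WT. The contrast was smaller after TMM-type scaling, at 14.8 to 23.8 in SKO and 14.1 to 17.5 in WT. Cnot3 had 2.95, 4.19 and 5.81 FPKM in SKO, against 3.99, 4.74 and 4.40 FPKM in WT (log2 difference -0.05, SE 0.34). The SKO values surround the WT values on both sides. Cnot10 had 11.7, 6.16 and 7.94 FPKM in SKO, against 7.32, 10.9 and 10.4 FPKM in WT (log2 difference -0.16, SE 0.37). Both ends of its range were SKO libraries.

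Set against the scaffold in the same library, the ratio of Cnot2 to Cnot1 separated the genotypes. It was looked at after its values were seen. The ratio holds Cnot1, which lay lower in every SKO library after TMM-type scaling, where Cnot2 overlapped. It is therefore not a separate result about Cnot2. Cnot2 density was 26.9%, 41.7% and 36.3% of that of Cnot1 in SKO, against 22.1%, 18.1% and 18.2% in WT. Cnot3 stood at 5.60% to 11.5% of Cnot1 in SKO and 5.09% to 6.24% in WT, and Cnot10 at 8.23% to 24.9% in SKO and 11.4% to 12.8% in WT. For Cnot3 and Cnot10 the genotypes overlapped, with a wider range in SKO.

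**Figure D2:**
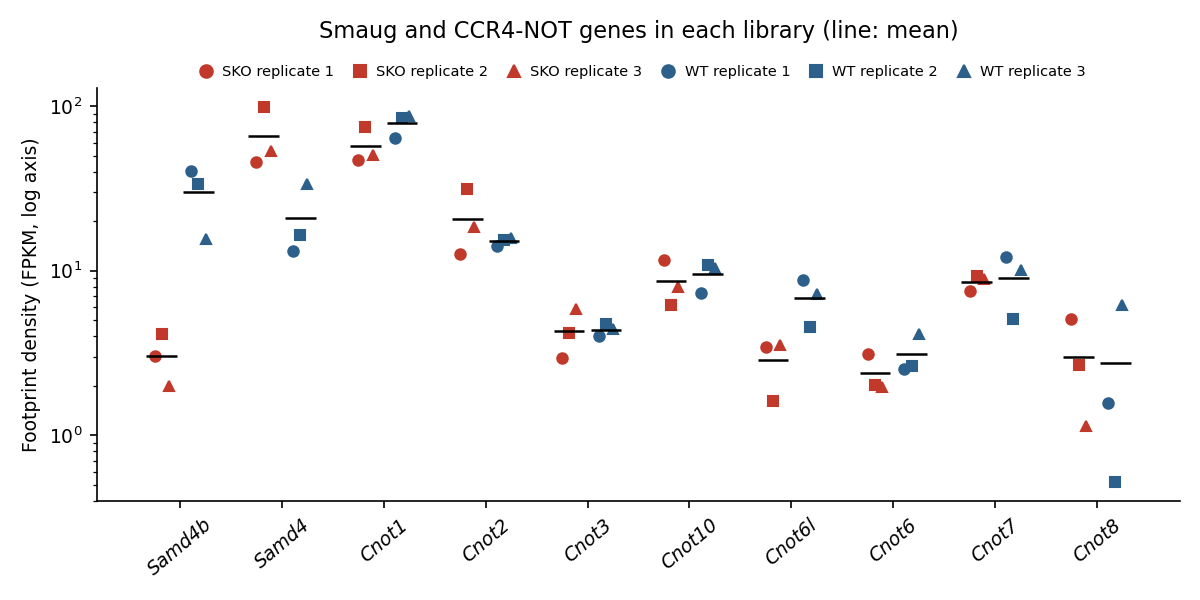
Footprint density of the 10 genes (FPKM, log axis) in each library, with SKO (red) left of WT (blue), a symbol per replicate and a line at the group mean. In these deposited values Samd4b and Cnot6l lie lower in every SKO library and Samd4 higher, and the other 7 genes overlap between genotypes. After TMM-type scaling, which is not drawn, Cnot1 does not overlap either.

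The catalytic subunits come in 2 paralogous pairs. CNOT6 and CNOT6L are the CCR4-type nucleases and CNOT7 and CNOT8 the CAF1-type nucleases, and a complex carries a nuclease of each type. Cnot6l had 3.42, 1.62 and 3.53 FPKM in SKO, against 8.72, 4.52 and 7.20 FPKM in WT. Every SKO library lay below every WT library, and the means were 2.85 ± 1.07 FPKM in SKO and 6.81 ± 2.13 FPKM in WT (SD, n = 3 each). The log2 difference was -1.02 (SE 0.38). Its paralogue Cnot6 had 3.12, 2.03 and 1.96 FPKM in SKO, against 2.52, 2.64 and 4.12 FPKM in WT, with overlap (log2 difference -0.28, SE 0.34). The summed density of the CCR4-type nucleases was 6.54, 3.64 and 5.49 FPKM in SKO, against 11.2, 7.16 and 11.3 FPKM in WT, with no overlap.

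The CAF1-type nucleases overlapped between genotypes. Cnot7 had 7.48, 9.21 and 8.88 FPKM in SKO, against 12.1, 5.07 and 10.1 FPKM in WT (log2 difference -0.01, SE 0.39). Here the WT libraries spread more widely than the SKO libraries. Cnot8 had 5.08, 2.69 and 1.13 FPKM in SKO, against 1.56, 0.520 and 6.17 FPKM in WT (log2 difference 0.26, SE 0.60). It was the least reproducible member, with the highest WT library 11.9 times the lowest. The sum of the CAF1-type nucleases also overlapped, at 10.0 to 12.6 FPKM in SKO and 5.59 to 16.2 FPKM in WT. The CAF1-type over the CCR4-type sum was 1.92, 3.26 and 1.82 in SKO, against 1.21, 0.781 and 1.44 in WT, without overlap. That ratio was not among the planned comparisons and holds Cnot6l, which was lower in every SKO library, so it is not a separate result.

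Within a library the paralogues can be compared without the genotype. Cnot7 was denser than Cnot8 in 6 of 6 libraries, by 1.52 ± 0.81 on the log2(FPKM + 1) scale (SD, n = 6). The two-sided exact sign-flip permutation test gave p = 0.0312, the smallest value 6 libraries allow, and 0.0625 after adjustment over the 2 pairs. Cnot6 over Cnot6l averaged -0.54 ± 0.57 (SD, n = 6; exact permutation p = 0.0938, adjusted 0.0938), with Cnot6 lower in 5 of 6 libraries. Neither pair passed the threshold of 0.05 after adjustment. FPKM of different genes also depend on how the authors assigned reads and lengths, which the replicates do not measure.

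**Figure D3:**
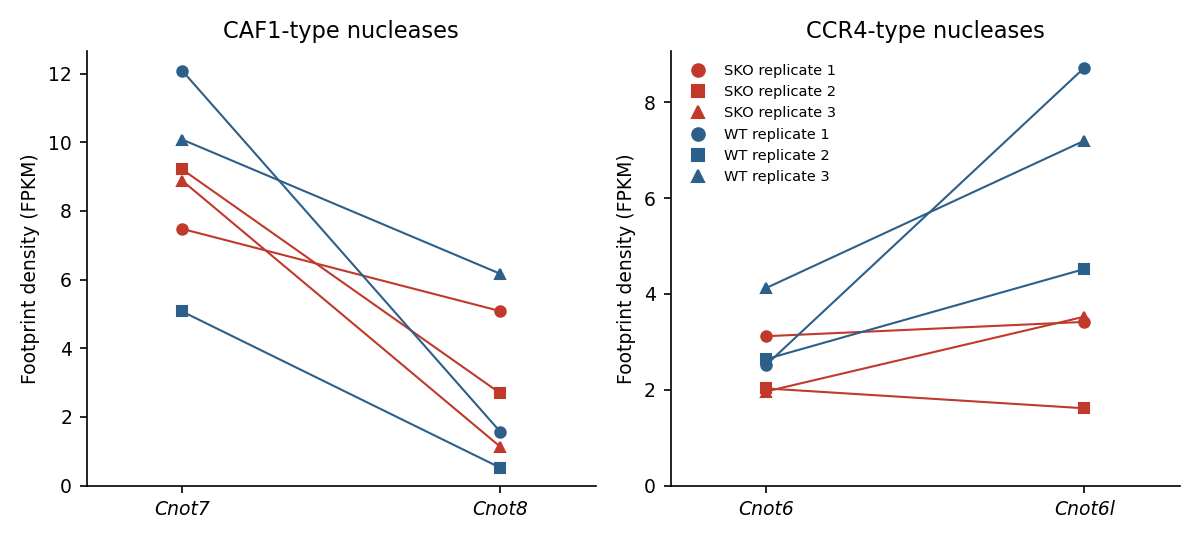
Footprint density (FPKM) of the CAF1-type pair (left) and the CCR4-type pair (right), with a line joining the paralogues of each library, SKO in red and WT in blue. All 6 lines run downward from Cnot7 to Cnot8, and 5 of 6 run upward from Cnot6 to Cnot6l.

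In SKO the order of mean density was Samd4 (65.9 FPKM), Cnot1 (57.3), Cnot2 (20.7), Cnot10 (8.59), Cnot7 (8.52), Cnot3 (4.32), Samd4b (3.03), Cnot8 (2.97), Cnot6l (2.85) and Cnot6 (2.37). In WT it was Cnot1 (78.5 FPKM), Samd4b (29.9), Samd4 (21.0), Cnot2 (15.1), Cnot10 (9.53), Cnot7 (9.08), Cnot6l (6.81), Cnot3 (4.38), Cnot6 (3.09) and Cnot8 (2.75). Samd4b thus stood 7th in SKO and 2nd in WT. Neighbours whose 3 libraries did not overlap were Cnot1 and Cnot2, Cnot2 and Cnot10, and Cnot7 and Cnot3 in SKO, and Cnot1 and Samd4b, and Cnot2 and Cnot10 in WT. All other neighbours overlapped, so their order is not settled by these libraries.

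Over the whole table, limma, with p adjusted by Benjamini-Hochberg across the tested rows, called 0 of the 10 members at an adjusted p under 0.05 with the deposited values, where it called 0.128% of all rows. An unadjusted p under 0.05 was counted for 3 members, beside 11% of all rows. After TMM-type scaling it called Samd4b lower and no other member, where it called 1.02% of all rows and 0.257% as lower. An unadjusted p under 0.05 was then counted for 4 members, beside 15.7% of all rows. The list was built from this comparison, so these counts describe it and are no evidence about it. The call of Samd4b is the value for which it was chosen. That call was lost when any of the 6 libraries was left out. With the deposited values groups did not overlap for 3 of 10 members. Of all tested rows 15.7% did not overlap, with 10.9% higher and 4.78% lower in SKO. The members' median log2 difference was -0.10, beside 0.13 for all tested rows, and -0.25 beside -0.0003 after TMM-type scaling.

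**Figure D4:**
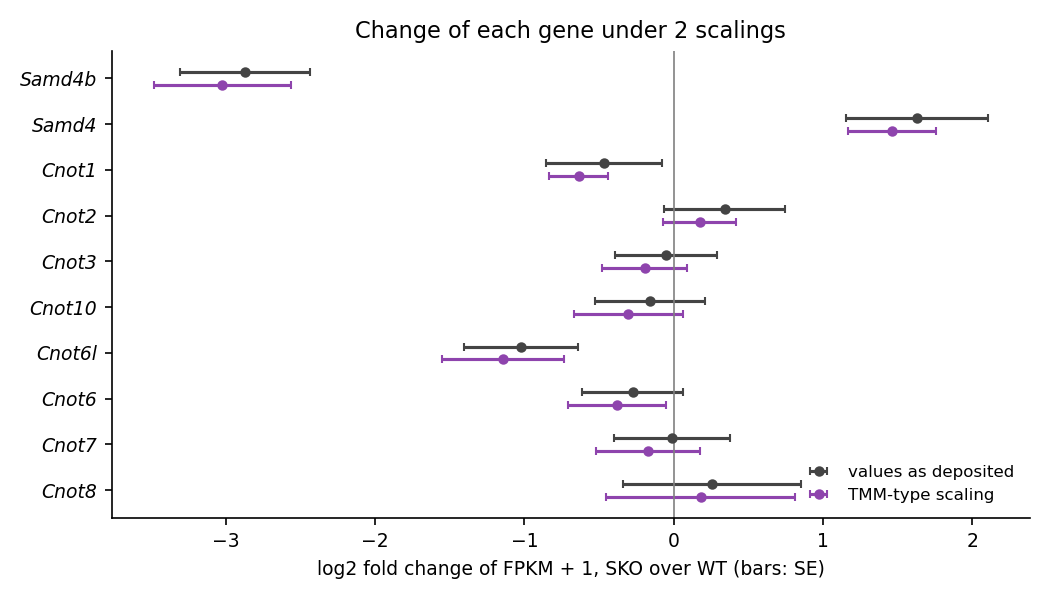
The log2 fold change of FPKM + 1, SKO over WT, of each gene with its standard error (n = 3 per group), for the deposited values (grey) and after TMM-type scaling (purple). Samd4b lies at -2.87 and -3.02 and Samd4 at 1.63 and 1.46, while Cnot7 lies at -0.01 and -0.17.

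The protein-coding genes most like Samd4b over the 6 libraries were Ranbp17, Yipf1, Parp2, Limd1 and Mrpl49, among 4649 candidates averaging 5 FPKM or more. Pearson's r of log2(FPKM + 1) ran from 0.977 for Ranbp17, which encodes a nuclear transport receptor relative, to 0.937 for Mrpl49, a mitochondrial ribosomal protein gene. These are descriptions over 6 points that share their libraries and the genotype. Parp2, a DNA repair gene, had 4.08, 4.82 and 3.73 FPKM in SKO, against 12.4, 14.2 and 14.1 FPKM in WT. Ranbp17 had 6.48, 6.96 and 5.30 FPKM in SKO, against 13.0, 15.9 and 11.0 FPKM in WT. Both were lower in every SKO library, as Samd4b was, which choosing genes by their likeness to Samd4b favours. Eif5a itself ranked 15th, with r = 0.902, and r between Samd4b and Samd4 was -0.878.

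Further genes of the pathway were counted in 5 lists chosen by function. With the deposited values limma called 0 of their 63 tested genes at an adjusted p under 0.05, and 2 had an unadjusted p under 0.05, beside 11% of all rows. After TMM-type scaling it again called 0, with 6 at an unadjusted p under 0.05, 2 higher and 4 lower, beside 15.7% of all rows. With the deposited values groups did not overlap for 8 of the 63, against 15.7% of all tested rows. Of the 8, 7 lay higher in SKO (Tnrc6b, Zfp36, Cpeb3, Pnldc1, Lsm14b, Lsm6 and Exosc4) and 1 lower (Cnot4), where 10.9% and 4.78% of all rows did. Those outside the naming rule are given here after their values were seen. Of the remaining CCR4-NOT proteins 3 were tested, with a median log2 difference of -0.43 beside 0.13 for all rows. Cnot4, a ubiquitin ligase that binds the complex, had 8.25, 7.68 and 6.14 FPKM in SKO, against 8.25, 16.0 and 19.9 FPKM in WT, and was not called (adjusted p = 0.482, limma). Its highest SKO value and lowest WT value were nearly equal. Cnot11, the partner of CNOT10, had 1.67, 0.829 and 4.32 FPKM in SKO, against 2.64, 3.83 and 2.59 FPKM in WT.

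Adaptors that bring CCR4-NOT to target mRNAs had 16 tested members and a median of 0.24. Tnrc6b, a scaffold of microRNA silencing, had 11.2, 20.7 and 13.1 FPKM in SKO, against 4.96, 6.39 and 3.01 FPKM in WT. The log2 difference of 1.47 (SE 0.39) did not pass (adjusted p = 0.227, limma), although the groups did not overlap. Zfp36, which encodes an AU-rich element binding protein, had 2.43, 4.77 and 3.39 FPKM in SKO, against 1.33, 0.938 and 0.443 FPKM in WT (adjusted p = 0.275, limma). Btg1, an activator of the deadenylases, had 5.62, 15.5 and 13.0 FPKM in SKO, against 1.34, 6.65 and 9.44 FPKM in WT, with overlap.

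Deadenylases outside CCR4-NOT had 8 tested members and a median of 0.03. The densest was Angel1, a relative of the CCR4-type nucleases, with 53.1, 84.8 and 70.1 FPKM in SKO, against 55.6, 102 and 135 FPKM in WT. Pan3, a subunit of the PAN2-PAN3 deadenylase, had 17.7, 12.4 and 9.06 FPKM in SKO, against 13.6, 18.3 and 4.74 FPKM in WT. Both overlapped between genotypes as deposited. After TMM-type scaling Pan3 still overlapped, and Angel1 lay lower in every SKO library (log2 difference -0.59, SE 0.25). It was not called (adjusted p = 0.315, limma after TMM-type scaling).

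Repression and decapping genes, 21 tested, had a median of 0.13, equal to that of all rows at 2 decimals. Eif4e, the cap-binding factor, had 16.4, 104 and 57.9 FPKM in SKO, against 41.0, 34.9 and 63.4 FPKM in WT, and Lsm2, of the LSM ring that binds decaying mRNA, had 37.2, 82.0 and 55.6 FPKM in SKO, against 46.4, 47.8 and 58.2 FPKM in WT. The exosome and SKI genes, 15 tested, had a median of 0.27. Exosc5, an exosome core subunit, had 33.0, 69.9 and 63.1 FPKM in SKO, against 27.9, 39.8 and 46.6 FPKM in WT, and the helicase gene Skiv2l had 26.9, 46.3 and 30.9 FPKM in SKO, against 23.5, 35.0 and 39.6 FPKM in WT. These 4 genes overlapped between genotypes.

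**Figure D5:**
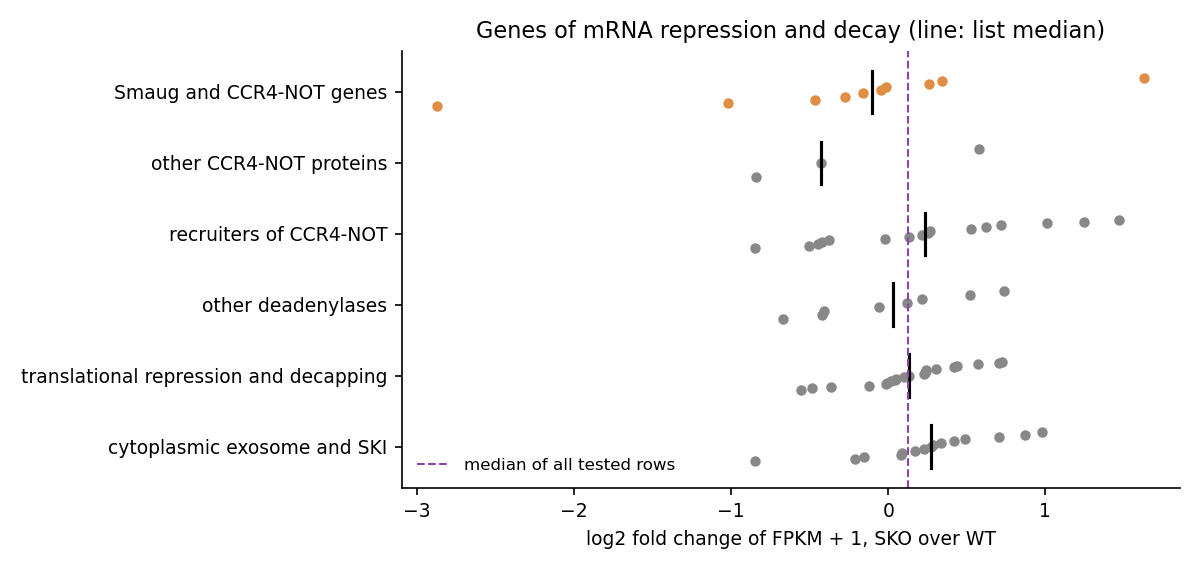
The log2 fold change of FPKM + 1, SKO over WT, of each tested gene (points) in the Smaug and CCR4-NOT set and in 5 lists of mRNA repression and decay, with the list median (line) and the median of all tested rows (dashed, 0.13). The listed genes outside the set lie between -0.85 and 1.47, and Samd4b at -2.87 is the lowest point.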

How the data were processed

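Per the labels' protocols, spermatids were lysed with cycloheximide, RNase I digested unprotected RNA, ribosomes were pelleted through sucrose, and gel-selected fragments went into small RNA libraries. The deposited values are FPKM, computed by the authors, 1 per gene symbol and library. Per the submitters' processing notes, the build was mm10 and the tools were STAR, Bowtie2, Cutadapt and Cufflinks, whose roles are not given. Which annotation was used, and how reads with several matches were counted, was not stated.

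Table columns named cKO were matched to the SKO samples by genotype and replicate number. Rows averaging 1 FPKM or more (15578 of 22770) were compared as log2(FPKM + 1) with limma 3.58.1 in R 4.3.3 (eBayes with a trend, two-sided, Benjamini-Hochberg, threshold 0.05). The labels do not name the animals, so the p-values cover only the spread among these samples. Absolute depth is unknown: among 1800 genes under 1 FPKM, 26.7% had values in whole-number steps within 2%, against 14.8% after shuffling, so reads were not recovered. TMM-type scaling trimmed the log ratios by 0.3 and the levels by 0.05 at either end. Its factors ran from 0.810 to 1.31. Paralogues were compared within libraries with scipy 1.17.1. Alternatives were other pseudocounts, filters, scalings and eBayes settings, a replicate block, and fits without each library.

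The members and all lists were chosen with earlier results of these data known. Named are all members, Eif5a, and in each list the genes that passed, or else the 2 densest. As genes like Samd4b the 5 with the highest correlation are named, without clone names or rows with identical values. No member shares its 6 values with another row. Coordinates are from RefSeq for GRCm38.p6, the assembly behind mm10.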

Additional observations from a re-analysis of the deposited data

How the results depend on the processing

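Samd4b lay lower and Samd4 higher in SKO in all 23 alternatives, with log2 differences from -3.55 to -2.05 for Samd4b and from 1.26 to 2.01 for Samd4. Cnot6l lay lower in all 22 that tested it (-1.39 to -0.58), as did Cnot1 in 23 (-0.74 to -0.34) and Cnot6 in 22. The sign of Cnot7 turned in 4 of 23, that of Cnot8 in 4 of 22, and those of Cnot2, Cnot3 and Cnot10 in 1 each. The count of members called lower was 1, Samd4b, in place of 0 with a minimum mean of 5 FPKM, with TMM-type scaling, with quantile normalization and with robust eBayes. Samd4b was chosen for this difference in these libraries, so its sign and its calls are no evidence about it. The count called higher was 1, Samd4, in place of 0 with quantile normalization. It was 0 in both directions in the other alternatives, those that left out 1 library included, and 0 for the pathway lists in all 23. Over all 15578 tested rows 17 were called higher and 3 lower. The counts were 119 and 40 with TMM-type scaling, 248 and 198 with quantile normalization, and 53 and 10 with robust eBayes. With that minimum of 5 FPKM they were 78 and 8 of 6582 rows. With 1 library left out of the deposited values they were 3 to 28 and 1 to 4. These libraries do not settle whether the replicate numbers pair the samples. Same-numbered libraries had correlations of deviations of 0.09, 0.0002 and 0.02, and the other combinations -0.11 to 0.08. SKO replicates 1 and 3 correlated best with the same-numbered WT library, and SKO replicate 2 with WT replicate 3. With the replicate block 0 members were called, 4 rows were higher and 1 lower, and Samd4b kept its log2 difference of -2.87. The order within both paralogue pairs kept its direction with other pseudocounts and with 1 library left out. With 5 libraries the smallest exact p allowed lies above the threshold.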

Other observations

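Several rows of the set share ground with other annotated genes, and strand and read assignment of the deposited values are not known here. RefSeq annotates 20 genes that overlap 9 of the 10 members, and Samd4b is the member with none. Inside Cnot6, whose own values lie at 1.96 to 4.12 FPKM, the transcribed pseudogene Gm12191 had 55.4, 142 and 98.9 FPKM in SKO, against 55.0, 71.5 and 104 FPKM in WT. Inside Cnot8, the pseudogene Gm12247 had 2.89, 4.48 and 3.35 FPKM in SKO, against 2.45, 2.71 and 9.79 FPKM in WT. WT replicate 3 was the highest library for both Gm12247 and Cnot8, but the order below it differed. SKO replicate 1 came next for Cnot8 (5.08 FPKM) and SKO replicate 2 for Gm12247 (4.48 FPKM). The part of Gm12247 in the Cnot8 values was not tested. At the end of Cnot7, Vps37a, an endosomal sorting gene, had 9.19, 13.1 and 4.98 FPKM in SKO, against 5.09, 7.49 and 13.8 FPKM in WT.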
